A study of Mus musculus with 6 samples.

Results

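Glycolytic enzyme isoforms in mouse Th1 cells were described from RNA sequencing counts for 10 genes chosen by name out of 54532 in the count table: Hk1, Hk2, Pfkl, Pfkm, Pfkp, Aldoa, Aldoc, Eno1, Eno2 and Gapdh. CD4+ T cells were isolated with magnetic beads from spleens of young male C57BL/6 mice and grown for 72 h under Th1 conditions. In the methods these conditions are anti-CD3ε, anti-CD28, IL-2, IL-12p70 and an antibody that blocks IL-4, and all libraries shared them. The Th1 group (3 libraries) received vehicle, 0.1% DMSO, and the Th1_ALX5407 group (3 libraries) received ALX-5407 at 500 nM, a compound that blocks glycine uptake through GlyT1. The labels call the libraries biological replicates but do not say whether they came from separate mice, so p-values measure the spread between these libraries, which may be partly technical. The labels describe 72 h with ALX-5407, as does the general culture description of the study, whereas its sequencing methods give a shorter exposure, so the exposure time carries some uncertainty. The question addressed here was whether the inhibitor changed how strongly each glycolytic step was transcribed and which isoform supplied it.

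Glycolysis splits glucose into pyruvate in the cytosol, and activated T cells raise its enzymes to feed growth and effector function. Several steps are encoded by more than one gene. Hexokinase, which phosphorylates glucose on entry, has the broadly expressed isoform Hk1 and the inducible isoform Hk2, and phosphofructokinase, the committed step, works as a tetramer of liver-type (Pfkl), muscle-type (Pfkm) and platelet-type (Pfkp) subunits. Aldolase cleaves the resulting sugar (Aldoa in most tissues, Aldoc mainly in brain), Gapdh oxidises the triose product, and enolase makes phosphoenolpyruvate (Eno1 in most tissues, Eno2 mainly in neurons).

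Libraries held 30801753 to 36727788 counts each, and 15938 genes passed the filter on low counts and were tested. All 10 enzyme genes passed it. The summed level of 7 CD4+ T cell markers was 2167 to 2331 CPM (counts scaled to a common library size by TMM) in Th1 libraries and 2236 to 2293 CPM in ALX-5407-treated ones. The single markers moved apart, since Cd4 (log2 fold change -0.46), Cd3d (-0.39) and Cd3g (-0.35) were called lower and Cd28 (0.52), Tbx21 (0.34) and Cd5 (0.24) higher in edgeR. The myeloid list of 5 markers summed to 15.3 to 20.9 CPM in Th1 libraries and to 5.32 to 6.30 CPM with ALX-5407. Nearly all of this was Cd68, and the other 4 markers had at most 15 counts in any library. The B cell list of 4 markers lay at 5.52 to 6.73 CPM and at 7.42 to 10.4 CPM with ALX-5407. The CD8 T cell list of 2 markers lay at 9.25 to 9.59 CPM and at 6.71 to 8.87 CPM with ALX-5407, and the platelet list of 2 markers at 0.461 to 1.08 CPM and at 1.37 to 2.92 CPM. The part of these other cells in the enzyme results was not tested.

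In Th1 cells treated with ALX-5407, Hk2 rose 1.54-fold, while Gapdh fell to 0.255 and Eno2 to 0.487 of the vehicle level and Aldoc fell to 0.690. Smaller decreases were called for Pfkm and Aldoa. The Gapdh value counts only the reads assigned to the row of Gapdh itself. With the pseudogene copies of Gapdh added, the value was 0.380. At an adjusted p under 0.05 (edgeR's quasi-likelihood test, adjusted over all genes tested), 1 of 10 enzyme genes was higher and 5 of 10 were lower. Among all genes tested 24.5% were higher and 23.2% lower by the same rule, which is 47.7% in either direction. With the fold change threshold of the study added (absolute log2 fold change over 1), 0 of 10 genes were called higher and 2 of 10 were called lower, Gapdh and Eno2, against 3.36% and 6.68% of all genes tested. Eno2 passed this threshold narrowly, at -1.04 (95% interval -1.23 to -0.85), and did not reach it with library size alone (-0.98). The levels of 6 of the 10 genes did not overlap between the groups, against 55.5% of all genes tested. The median log2 fold change of the 10 genes was -0.16, and that of all genes tested was 0.0053. In bulk RNA, fewer cells of a type and less RNA per cell cannot be told apart.

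**Figure D1:**
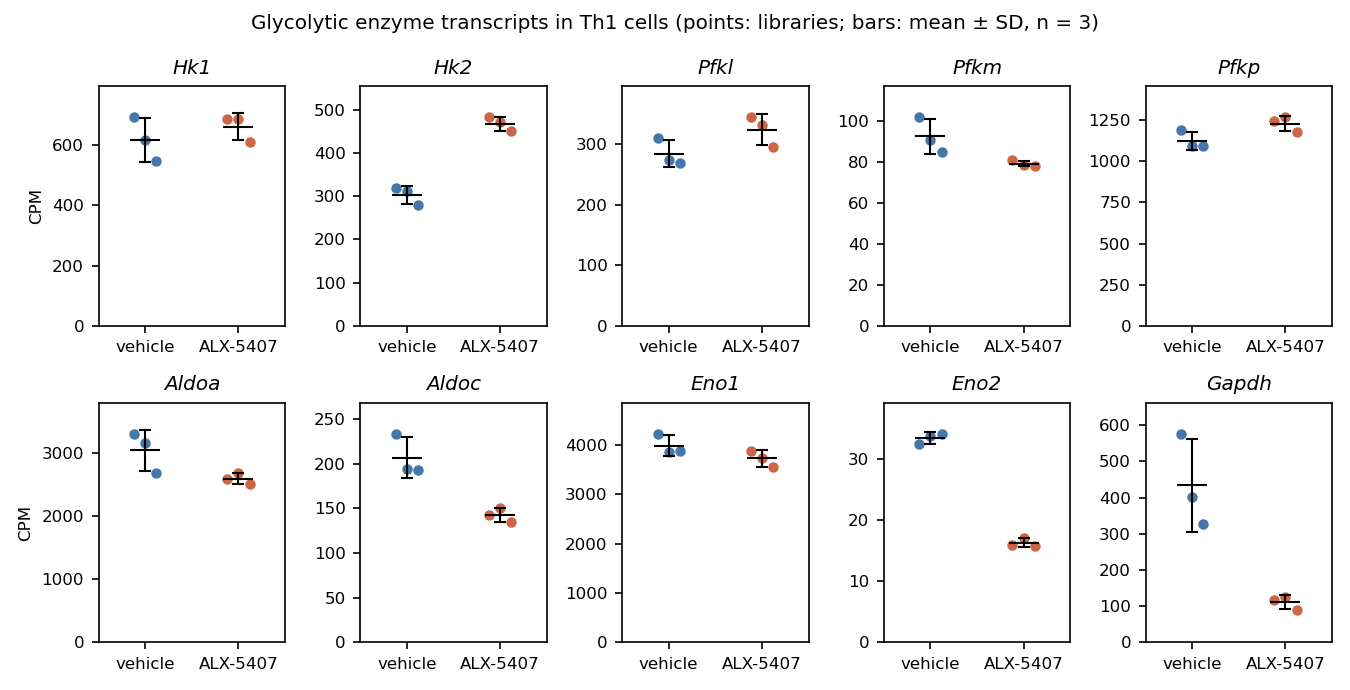
Level of each enzyme gene in CPM (linear axis from 0) in 3 vehicle-treated Th1 libraries (blue) and 3 ALX-5407-treated libraries (orange). Points are libraries and bars are mean ± SD. The groups stand apart for Hk2, Pfkm, Aldoa, Aldoc, Eno2 and Gapdh and overlap for the other 4 genes.

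Per kilobase of the longest principal mRNA in GENCODE M21, the levels of the 10 genes in Th1 cells spanned from 11.9 CPM per kb for Eno2 to 2013 CPM per kb for Aldoa. Aldoa (2013 ± 215) and Eno1 (1966 ± 102 CPM per kb, SD, n = 3) led and did not differ beyond their spread. Gapdh (306 ± 90.4) and Pfkp (271 ± 13.3 CPM per kb) came next, again within the spread of Gapdh. Hk1 followed at 161 ± 18.9 CPM per kb. Pfkl (76.1 ± 5.97) and Aldoc (74.2 ± 8.29 CPM per kb) were level with each other. Hk2 (55.0 ± 3.79), Pfkm (32.1 ± 2.98) and Eno2 (11.9 ± 0.329 CPM per kb) closed the order. With ALX-5407, Eno1 (1837 ± 80.9) had a higher mean than Aldoa (1713 ± 56.3 CPM per kb), again within their spread. Hk2 moved to 84.8 ± 2.94, next to Pfkl at 86.7 ± 6.72. Gapdh dropped from the third to the seventh place at 78.0 ± 13.7 CPM per kb. This place counts only the reads assigned to the row of Gapdh itself. That row held 52.4% of the reads on Gapdh and its pseudogene copies in Th1 libraries and 34.9% with ALX-5407. With the gene lengths of the count table, which merge the exons of all transcripts, Pfkl (42.5 CPM per kb) lay below Aldoc (63.3) and Hk2 (50.8 CPM per kb) in Th1 cells.

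At the hexokinase step the inducible isoform rose and the broadly expressed one did not pass the test. Hk2 (ENSMUSG00000000628, chromosome 6, 82725025 to 82774454, minus strand, GRCm38; 18 exons in its principal mRNA) measured 319, 311 and 280 CPM in the Th1 libraries and 482, 470 and 450 CPM in the ALX-5407-treated libraries. Every treated library exceeded every vehicle library. The log2 fold change was 0.62 (SE 0.0733, adjusted p = 3.58e-06, edgeR's quasi-likelihood test). Hk1 (ENSMUSG00000037012, chromosome 10, 62268855 to 62379908) measured 693, 616 and 547 CPM without and 688, 687 and 612 CPM with the inhibitor, and the groups overlapped. Its log2 fold change was 0.10 (95% interval -0.085 to 0.28, adjusted p = 0.377 in edgeR). Summed over both genes, hexokinase counts rose by a log2 fold change of 0.29 (SE 0.0810, adjusted p = 0.00694 in edgeR), from 922 ± 92.8 to 1130 ± 59.4 CPM.

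The share of Hk2 in the summed hexokinase CPM was 31.5%, 33.5% and 33.8% in the Th1 libraries and 41.2%, 40.6% and 42.4% in the ALX-5407-treated libraries. The shares did not overlap. The mean rose by 8.45 percentage points, from 33.0% ± 1.23 to 41.4% ± 0.890 (SD, n = 3 each), which is larger than the spread between libraries. A two-sided exact permutation test gave p = 0.1, the smallest p that 3 against 3 libraries allow, and 0.15 after Benjamini-Hochberg adjustment over the 6 shares tested. Divided by gene length with all exons merged, the mean Hk2 share went from 41.3% to 50.2%. Divided by mRNA length, a scale chosen after seeing the data, it went from 25.6% to 33.1%.

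At the phosphofructokinase step the summed level did not pass the test and the muscle-type subunit fell slightly. Pfkp (ENSMUSG00000021196, chromosome 13, 6579768 to 6648777), the most abundant subunit gene, measured 1188, 1092 and 1093 CPM in Th1 libraries and 1244, 1267 and 1175 CPM with ALX-5407. Its groups overlapped, and its log2 fold change was 0.13 (95% interval -0.022 to 0.28, adjusted p = 0.151 in edgeR). Pfkp shares 748 exon bases with Pitrm1 on the opposite strand, 5.58% of its exons, and whether counting used strand is not stated. Pfkl (ENSMUSG00000020277, chromosome 10, 77986947 to 78010083) measured 309, 274 and 268 CPM without and 344, 331 and 295 CPM with the inhibitor. The lowest treated library lay within the vehicle range, and the log2 fold change of Pfkl was 0.19 (SE 0.0799, adjusted p = 0.0623 in edgeR). Pfkl passed the threshold when library sizes were not rescaled (adjusted p = 0.0141), with no filter on low counts (0.0393), with a replicate block (0.0261), without Th1 replicate 1 (0.0340) and without Th1_ALX5407 replicate 3 (0.0237, each from edgeR).

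Pfkm (ENSMUSG00000033065, chromosome 15, 98092589 to 98132451) measured 102, 90.9 and 84.9 CPM in Th1 libraries and 80.8, 78.6 and 78.3 CPM with ALX-5407. Its exons share 341 bases with Gm26513, which had at most 20 counts in any library. The groups did not overlap, though the lowest vehicle library stood only slightly above the highest treated one. The log2 fold change was -0.22 (SE 0.0777, adjusted p = 0.0255 in edgeR). This call was lost when library sizes were not rescaled (adjusted p = 0.0885 in edgeR) and when Th1 replicate 1 or any of the 3 treated replicates was left out (adjusted p from 0.0619 to 0.133 in edgeR). The share of Pfkm in phosphofructokinase CPM was 6.37%, 6.24% and 5.87% in Th1 libraries and 4.84%, 4.69% and 5.06% with ALX-5407. It was thus lower in 3 of 3 treated libraries than in any vehicle library, by a mean of -1.30 percentage points (exact permutation test, two-sided p = 0.1, adjusted 0.15). Pfkp kept 74.9% ± 0.650 and 75.3% ± 0.683 of the enzyme, and Pfkl held 18.9% ± 0.408 and 19.8% ± 0.761 (SD, n = 3), with overlap between groups for both (exact permutation p = 0.6 and 0.2). The summed counts of all 3 subunits had a log2 fold change of 0.12 (95% interval -0.032 to 0.27, adjusted p = 0.185 in edgeR).

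**Figure D2:**
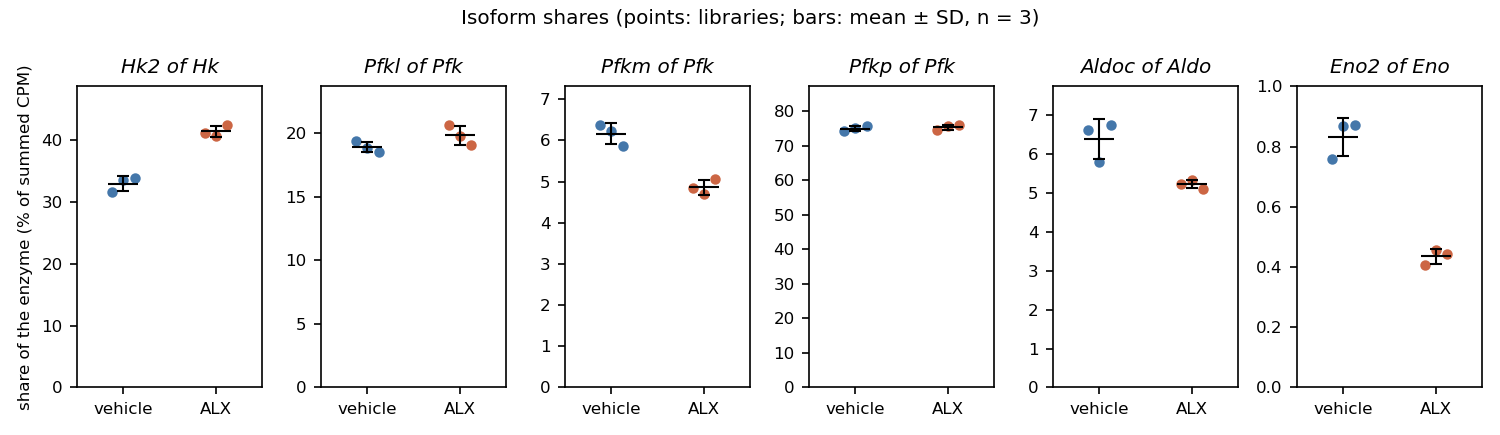
Share of 6 isoforms in the summed CPM of the listed isoforms of their enzyme, in percent (vertical axes start at 0 and differ between panels). Vehicle-treated Th1 libraries are blue and ALX-5407-treated ones orange. Points are libraries and bars are mean ± SD (n = 3). The share of Hk2 is higher in all treated libraries, those of Pfkm, Aldoc and Eno2 are lower, and those of Pfkl and Pfkp overlap.

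At the aldolase step both isoforms were called lower, the minor one by more. Aldoc (ENSMUSG00000017390, chromosome 11, 78322968 to 78327781) measured 233, 193 and 193 CPM in Th1 libraries and 143, 151 and 135 CPM with ALX-5407. All treated libraries lay below all vehicle libraries, and the log2 fold change was -0.54 (SE 0.0831, adjusted p = 6.11e-05 in edgeR). Aldoa (ENSMUSG00000030695, chromosome 7, 126795234 to 126800751) measured 3300, 3147 and 2676 CPM without and 2584, 2675 and 2505 CPM with the inhibitor. Its groups stood apart by about 1 CPM, with Th1 replicate 3 the lowest vehicle library. A further identifier with the symbol Aldoa in the count table had fewer counts and was left out of the levels, shares and totals. The log2 fold change of Aldoa was -0.23 (SE 0.0806, adjusted p = 0.0252 in edgeR). The Aldoa call was lost when library sizes were not rescaled (adjusted p = 0.0642 in edgeR) and in 5 of 6 fits that left out 1 library (adjusted p from 0.0570 to 0.115 in edgeR), all but the fit without Th1 replicate 3.

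Aldoc supplied 6.60%, 5.79% and 6.74% of aldolase CPM in Th1 libraries and 5.23%, 5.32% and 5.11% with ALX-5407. The mean fell by 1.16 percentage points (exact permutation test, two-sided p = 0.1, adjusted 0.15), and the groups did not overlap. Summed aldolase counts fell by 0.25 on the log2 scale (SE 0.0802, adjusted p = 0.0167 in edgeR). This call was lost without Th1 replicate 1, Th1_ALX5407 replicate 1 or Th1_ALX5407 replicate 3 (adjusted p = 0.0842, 0.0689 and 0.0562 in edgeR).

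At the enolase step the neuronal-type isoform fell from an already low level and the main isoform did not pass the test. Eno2 (ENSMUSG00000004267, chromosome 6, 124760053 to 124769673) measured 32.3, 33.7 and 34.1 CPM in Th1 libraries and 15.9, 17.1 and 15.8 CPM with ALX-5407. The groups were far apart relative to their spread. The log2 fold change was -1.04 (SE 0.0896, adjusted p = 1.44e-07 in edgeR). Eno1 (ENSMUSG00000063524, chromosome 4, 150236721 to 150248879) measured 4224, 3852 and 3880 CPM without and 3881, 3737 and 3554 CPM with the inhibitor, and the groups overlapped. Its log2 fold change was -0.10 (95% interval -0.25 to 0.053, adjusted p = 0.279 in edgeR).

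Counting annotated pseudogenes and Eno1b only, Eno1 has 3 near-identical copies (at least 95% identity over at least 100 bases). Together the copies held 2681 to 3467 counts per library. With these added, the log2 fold change was -0.096 (adjusted p = 0.286 in edgeR). Of the summed CPM of Eno1 and Eno2, Eno2 made up 0.760%, 0.868% and 0.871% in Th1 libraries. With ALX-5407 it made up 0.407%, 0.456% and 0.443% (exact permutation test, two-sided p = 0.1, adjusted 0.15). Isoforms outside the 10 genes, mainly Eno1b and Eno3, held 2.1% to 2.6% of the CPM of all annotated enolase isoforms. The summed counts of Eno1 and Eno2 had a log2 fold change of -0.10 (95% interval -0.25 to 0.047, adjusted p = 0.249 in edgeR). 

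Gapdh, which is also widely used as a reference gene in quantitative PCR, had the largest change of the 10 genes. Gapdh (ENSMUSG00000057666, chromosome 6, 125161715 to 125166467, minus strand) measured 576, 402 and 326 CPM in Th1 libraries and 117, 126 and 88.9 CPM with ALX-5407. The vehicle libraries varied more among themselves than for any other of the 10 genes in relation to their mean, and still the lowest stood well above the highest treated one. The log2 fold change was -1.97 (SE 0.162, adjusted p = 8.76e-08 in edgeR), and it ranged from -2.16 to -1.72 when any 1 library was left out.

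Gapdh has many processed pseudogenes, copies of its mRNA inserted elsewhere in the genome, so reads from Gapdh transcripts can match several places. By alignment, 73 annotated pseudogenes matched the Gapdh mRNA at 95% identity or more over at least 100 bases, 71 of them had counts, and together they covered 86.6% of the mRNA. The first 120 coding bases are shown for Gapdh, for Gm5559 (chromosome 5), the copy with the most counts, and for Gm14130 (chromosome 2), a more diverged copy. They are shown because a read from this stretch can match more than one place, and capitals mark bases that differ from Gapdh (GENCODE M21 transcripts, GRCm38, 5′ to 3′).
Gapdh: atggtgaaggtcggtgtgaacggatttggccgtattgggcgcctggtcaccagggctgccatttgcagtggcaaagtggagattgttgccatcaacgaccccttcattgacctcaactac
Gm5559: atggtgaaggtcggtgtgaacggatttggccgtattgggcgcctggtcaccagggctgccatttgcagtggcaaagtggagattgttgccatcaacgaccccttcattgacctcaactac
Gm14130: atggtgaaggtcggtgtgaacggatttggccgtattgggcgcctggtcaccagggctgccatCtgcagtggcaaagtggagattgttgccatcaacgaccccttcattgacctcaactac
Gm5559 had 0 differences in this stretch and an identical run of up to 617 bases with Gapdh, and Gm14130 had 1 difference. How reads that match several places were counted is not stated, so the level of Gapdh given above is that of the reads assigned to its own row.

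The reads assigned to the copies also fell. The 73 copies together held 426, 480 and 278 CPM in Th1 libraries and 225, 209 and 180 CPM with ALX-5407, with no overlap. Their summed counts had a log2 fold change of -0.95 (SE 0.142, adjusted p = 4.16e-05 in edgeR). Of 45 copies that passed the filter, 35 were called lower and 0 higher, beside 23.2% and 24.5% of all genes tested. The log2 fold change was below 0 for 45 of 45. These copies share sequence with Gapdh and are not independent observations.

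Gapdh and its copies summed to 1002, 882 and 604 CPM in Th1 libraries and 342, 336 and 269 CPM with ALX-5407. The groups did not overlap, and the log2 fold change of the sum was -1.40 (SE 0.139, adjusted p = 5.49e-07 in edgeR), smaller than that of the Gapdh row alone. The Gapdh row held 57.5%, 45.5% and 54.0% of these reads in Th1 libraries and 34.1%, 37.6% and 33.1% with ALX-5407. This share fell from 52.4% ± 6.15 to 34.9% ± 2.39 (SD, n = 3, exact permutation test, two-sided p = 0.1). The other 8 genes have no annotated pseudogene copy by this rule. Copies of other gene types were not counted, apart from Eno1b. No isoform pair within an enzyme shares a stretch of 100 bases at 95% identity, the closest pair being Aldoa and Aldoc at 77.8% over 1003 aligned bases.

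**Figure D3:**
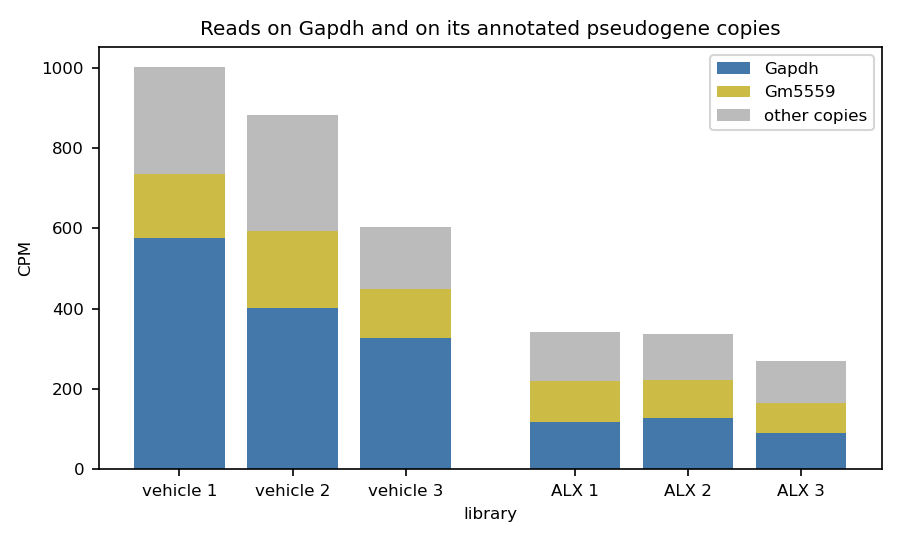
CPM (linear axis from 0) assigned to Gapdh (blue), to its most counted pseudogene copy Gm5559 (yellow) and to the other annotated copies (grey), stacked for each of 3 vehicle-treated and 3 ALX-5407-treated Th1 libraries. All 3 parts are smaller in every treated library, and the blue part shrinks most.

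The genes that fell or rose most were also described by their promoters, the window from 250 bases before to 50 after the transcription start (RefSeq, GRCm38.p6). The letters searched, on both strands, were ACGTG and GCGTG, the core of the hypoxia response element bound by HIF-1, and CACGTG, the E-box bound by Myc, which contains ACGTG. All 10 genes matched RefSeq entries, with 19 windows between them, some of which overlap. The windows of Hk2, the gene that rose, and of Gapdh and Eno2, the genes that fell by the study's threshold, are shown with matches in capitals (CACGT and CACGC are the same letters read on the other strand).
Hk2 (chr6:82774405-82774704, minus strand): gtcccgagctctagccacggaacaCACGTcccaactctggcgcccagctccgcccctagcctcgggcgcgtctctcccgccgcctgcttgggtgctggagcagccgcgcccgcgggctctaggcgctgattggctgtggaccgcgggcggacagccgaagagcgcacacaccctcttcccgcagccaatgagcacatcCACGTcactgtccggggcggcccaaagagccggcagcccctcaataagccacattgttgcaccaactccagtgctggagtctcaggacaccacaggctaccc
Gapdh (chr6:125165724-125166023, minus strand): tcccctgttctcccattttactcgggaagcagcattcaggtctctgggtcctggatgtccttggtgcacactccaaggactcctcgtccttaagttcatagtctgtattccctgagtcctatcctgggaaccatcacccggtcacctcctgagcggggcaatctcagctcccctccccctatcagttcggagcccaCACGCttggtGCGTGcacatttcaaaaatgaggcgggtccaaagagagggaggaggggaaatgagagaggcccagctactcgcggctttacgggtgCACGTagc
Eno2 (chr6:124769624-124769923, minus strand): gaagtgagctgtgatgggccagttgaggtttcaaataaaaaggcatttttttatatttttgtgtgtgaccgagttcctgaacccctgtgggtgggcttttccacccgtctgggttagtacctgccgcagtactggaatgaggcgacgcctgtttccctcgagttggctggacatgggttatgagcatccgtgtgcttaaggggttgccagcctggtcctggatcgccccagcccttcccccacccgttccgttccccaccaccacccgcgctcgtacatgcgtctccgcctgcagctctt
The Hk2 window held 2 ACGTG, the Gapdh window held 1 ACGTG and 2 GCGTG, and the Eno2 window held no match. Of the 19 windows, 15 held ACGTG or GCGTG, against 43.77% of 32851 promoter windows in the table, and 1 (of Pfkm) held CACGTG, against 7.15%. The 15 windows belong to 9 of the 10 genes, and overlapping windows count a shared site more than once. The difference from all windows was not tested. A match describes letters only, and genes that rose, fell or did not pass the test all had windows with a match.

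The remaining genes of the pathway were taken from 6 lists, of which 43 of 52 genes were tested. 13 were higher and 13 were lower. Among other glycolytic enzymes, 2 of 10 tested were higher and 4 lower (24.5% and 23.2% of all genes tested). Tpi1, the isomerase next to aldolase, went from 1897 to 1416 CPM (log2 fold change -0.42, SE 0.0755, adjusted p = 0.000235 in edgeR). Pgk1, the kinase after Gapdh, went from 4250 to 3273 CPM (-0.38, SE 0.0670, adjusted p = 0.000220 in edgeR). Ldha, which makes lactate, and Pkm, the last kinase of the pathway, were also lower, with log2 fold changes of -0.22 (adjusted p = 0.0206) and -0.24 (adjusted p = 0.0235 in edgeR). Adpgk, an ADP-dependent kinase for glucose, was higher by 0.75 (adjusted p = 4.93e-06), as was Bpgm by 0.32 (adjusted p = 0.0304 in edgeR). Pkm and Bpgm were named after their values were seen. Gpi1 and Pgam1, at the steps in between, did not pass the test.

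**Figure D4:**
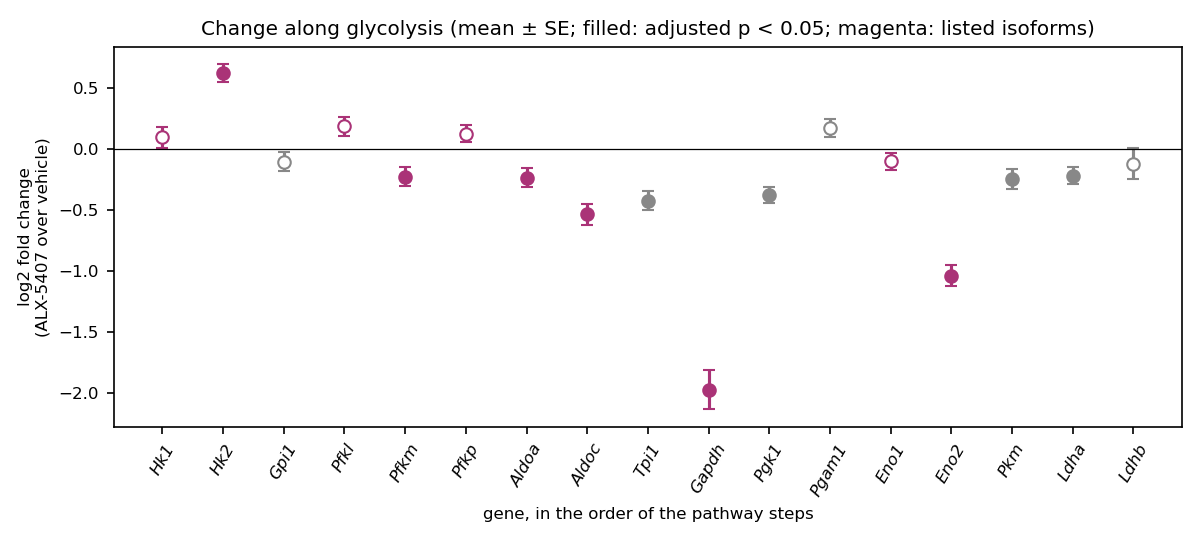
Log2 fold change (ALX-5407 over vehicle, mean ± SE from edgeR, 3 libraries per group) of glycolytic genes ordered by pathway step from hexokinase to lactate dehydrogenase. Magenta marks the 10 isoform genes and grey the other enzymes, with filled points at an adjusted p under 0.05. Adpgk, Bpgm and Pgam2 are not plotted. Among the 10 isoform genes, Hk2 is the highest point at 0.62 and Gapdh the lowest at -1.97.

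Of 7 transporter genes tested, 1 was higher and 3 were lower, beside 24.5% and 23.2% of all genes tested. Slc16a1, the lactate transporter MCT1, was higher (log2 fold change 0.61, adjusted p = 2.76e-06 in edgeR), whereas Bsg, which brings such transporters to the membrane, was lower (-0.73, adjusted p = 1.95e-06 in edgeR). The glucose transporters Slc2a3 (-0.49, adjusted p = 0.000380) and Slc2a6 (-1.03, adjusted p = 1.69e-05 in edgeR) were lower as well. Among the 5 genes that set fructose 2,6-bisphosphate, the activator of phosphofructokinase, 1 was higher and 2 lower (24.5% and 23.2% of all genes tested). Pfkfb3 and Pfkfb4, which make it, were lower (-0.50, adjusted p = 0.000243, and -0.48, adjusted p = 0.00263 in edgeR), and Tigar, which breaks it down, was higher (0.57, adjusted p = 0.000137 in edgeR). Pfkfb2 did not pass the test (-0.13, adjusted p = 0.532 in edgeR).

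Of 13 tested regulators of glycolysis, 7 were higher and 2 lower, beside 24.5% and 23.2% of all genes tested. Egln3, a hydroxylase that marks HIF proteins for decay, was higher (0.72, adjusted p = 6.92e-07) and Vhl, which carries that decay out, was lower (-0.69, adjusted p = 2.98e-05 in edgeR). The transcription factors Myc (0.57, adjusted p = 1.62e-05) and Irf4 (0.48, adjusted p = 7.43e-05 in edgeR) were higher. Among further isoforms of the same enzymes, Gapdhs was lower (-0.60, adjusted p = 0.0122 in edgeR), at under 6 CPM in every library. Eno1b and Eno3 did not pass the test (0.14 and -0.15, adjusted p = 0.149 and 0.223 in edgeR). Of 3 tested genes of gluconeogenesis, 2 were higher, beside the same 24.5% of all genes tested. These were Pck2, the mitochondrial phosphoenolpyruvate carboxykinase (0.91, adjusted p = 4.59e-08), and Pcx, pyruvate carboxylase (0.82, adjusted p = 4.97e-07 in edgeR), while G6pc3 did not pass the test (-0.15, adjusted p = 0.167 in edgeR).

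The genes whose levels over the 6 libraries followed those of Hk2, Gapdh and Eno2 most closely were found by the Euclidean distance of centred log2 CPM among 12116 genes with a mean of at least 50 counts. Dmwd, Tubg1 and Rcc2 lay nearest to Hk2, at distances of 0.0379, 0.0515 and 0.0593. Gm2451, which is one of the 73 pseudogene copies and can share reads with Gapdh, Myh7b and Guca1a lay nearest to Gapdh, at 0.413, 0.415 and 0.474. Galc, Riok1 and Pan2 lay nearest to Eno2, at 0.0982, 0.123 and 0.140. The distance is set mostly by the difference between the groups and describes likeness over these libraries only.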

How the data were processed

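RNA was sequenced from 6 mouse CD4+ T cell cultures, 3 with vehicle and 3 with 500 nM ALX-5407, grouped by their labels. Per the submitters' processing notes, fastp, HISAT2 2.0.5 and featureCounts 1.5.0-p3 were used with mm10. The authors deposited raw counts per gene, with no normalization or pooling, and settings for strand and for reads with several matches are not given in the sources used here. The labels describe poly-T bead capture, the methods depletion of ribosomal RNA.

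Counts were tested in edgeR 4.0.16 (R 4.3.3; filterByExpr with a minimum count of 10, TMM, quasi-likelihood test), and p-values were adjusted by the Benjamini-Hochberg method over 15938 genes. On simulated counts for this comparison, edgeR recovered 186 of 195 changed genes (95.4%) among 15949 genes run. It gave 0 in the wrong direction and 3 false calls. Whether this share holds for changes as small as those of Pfkm and Aldoa was not tested. Libraries held 30801753 to 36727788 counts, and CPM use these totals scaled by TMM factors. Isoform shares were taken of the summed CPM of the listed isoforms of each enzyme and compared by exact permutation tests in scipy 1.17.1. Copies were found with blastn 2.17.0 in GENCODE M21 (95% identity, 100 bases), keeping annotated pseudogenes and, for Eno1, also Eno1b.

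The members and lists were chosen with earlier results of these data known. Named were all 10 members, in each pathway list up to 4 genes with the smallest p, and the 3 genes nearest to Hk2, Gapdh and Eno2. Alternatives were DESeq2 size factors, library size alone, no filter, DESeq2 1.42.0, limma-voom (limma 3.58.1), a replicate block, leaving out each library, per-length scales and all annotated isoforms. The results for 2 genes of the pathway lists are not reported here.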

Additional observations from a re-analysis of the deposited data

How the results depend on the processing

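The direction of all 10 genes, 4 enzyme totals and 6 isoform shares was kept under every alternative run. For Hk1 this means little, since its log2 fold change was 0.00053 without Th1 replicate 3 (adjusted p = 0.996 in edgeR). At an adjusted p under 0.05, Hk2, Aldoc, Eno2, Gapdh, the hexokinase total and Gapdh with its copies also kept their calls. Hk2 and Aldoc did not reach the added fold change threshold. Members called higher numbered 1 in the analysis reported, 3 with library size alone, 2 with no filter and 0 with the fold change threshold, and members called lower numbered 5, 3 with library size alone and 2 with the threshold. Pfkl and Pfkp were the genes gained with library size alone, Pfkm and Aldoa the ones lost. Other pathway genes called numbered 13 higher and 13 lower, 0 and 1 with the threshold. The phosphofructokinase total passed with library size alone (log2 fold change 0.18, adjusted p = 0.0403 in edgeR). The scaling shifted the median of all genes by under 0.1, to 0.064. The cause of these changes was not tested beyond the setting itself.

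Leaving out 1 library gave 1 to 2 members higher and 3 to 5 lower, 12 to 13 pathway genes higher and 10 to 15 lower, and an aldolase total of -0.35 to -0.19. Shares ranged from 7.74 to 8.87 percentage points for Hk2, 0.520 to 1.28 for Pfkl, -1.44 to -1.19 for Pfkm, 0.0571 to 0.767 for Pfkp, -1.45 to -0.977 for Aldoc and -0.434 to -0.378 for Eno2. Divided by the gene length in the table, the difference was 1.97 for Pfkl, -3.46 for Pfkm, 1.49 for Pfkp and -0.454 percentage points for Eno2. Divided by mRNA length, an alternative chosen after seeing the data, it was -1.75 for Pfkm, -0.662 for Aldoc and -0.289 percentage points for Eno2.

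Same-numbered libraries of the groups did not deviate together (correlations of -0.0084, 0.0036 and 0.063), which gives no sign that the numbers pair the samples. With so few libraries these correlations cannot settle whether they do. With a replicate block, 2 members were called higher, since Pfkl passed (adjusted p = 0.0261 in edgeR), and 5 lower, and not every library correlated best with its own number. With 3 libraries a group, permutation tests cannot go below p = 0.1.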

Other observations

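Gapdh and Eno2, the 2 members that fell by the study's threshold, and Tpi1, a neighbouring step, lie close together on chromosome 6 (GRCm38). The span from the start of Eno2 to the end of Gapdh, 124760053 to 125166467, holds 31 annotated genes, of which 25 were tested. The span was chosen after the values were seen. Gapdh, Eno2 and Tpi1, which prompted the choice, are themselves among the lower genes counted next. That count is therefore not independent of the choice. At an adjusted p under 0.05 in edgeR, 8 of the 25 genes were lower and 4 were higher, beside 23.2% and 24.5% of all genes tested, and their median log2 fold change was 0.049. Nop2 (0.45, adjusted p = 0.000292) and Chd4 (0.42, adjusted p = 0.000136 in edgeR) were among the higher ones, and Cd4, which marks the cells studied, was lower (-0.46, adjusted p = 0.000174 in edgeR).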
